A study of Homo sapiens with 2 samples.

Results

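The miR-181 family was followed through its guide and passenger arms in MDA-MB-231 cells, an established human triple-negative breast cancer line. The members were chosen by name, as hsa-miR-181a-5p, hsa-miR-181b-5p, hsa-miR-181c-5p, hsa-miR-181d-5p, hsa-miR-181a-3p, hsa-miR-181a-2-3p and hsa-miR-181c-3p. These are 7 of the 2656 mature microRNAs in the deposited table. Small RNA of cells transduced with an shRNA against ELOVL5 (shELOVL5) was compared with that of cells transduced with the control shRNA shLuc. Each condition is represented by a single library. ELOVL5 is an elongase of polyunsaturated fatty acids. Both cultures carried an shRNA, and no untransduced cells enter the comparison. The labels give neither the number of shRNA sequences used nor whether the cells were clonal, and their extraction text speaks of tumor material although the samples are labelled as the cell line. ELOVL5 mRNA was not measured in these libraries, so the knockdown could not be checked here.

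A microRNA hairpin is cut into a duplex of its left (5p) and right (3p) arms. One strand, the guide, is kept by an Argonaute protein and pairs with target RNAs mainly through its seed, and the other strand, the passenger, is mostly degraded. In the miR-181 family the 5p arms are known as the guides. miR-181a is known in thymocytes for raising the sensitivity of T cell receptor signalling by lowering several phosphatases, and in breast cancer cells it has been described as induced by TGF-beta. miR-181a-5p and miR-181b-5p are each encoded on both chromosome 1 and chromosome 9, so their reads do not tell the loci apart. The 3p arms of these hairpins differ in sequence, those of miR-181b only slightly, and can.

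The mature guide arms are shown first, since their near identity decides how their reads can be assigned. Sequences are from RefSeq (GRCh38.p14), where all 7 members were matched, and capitals mark the seed, bases 2 to 8.
hsa-miR-181a-5p: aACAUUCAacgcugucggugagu
hsa-miR-181b-5p: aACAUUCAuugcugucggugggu
hsa-miR-181c-5p: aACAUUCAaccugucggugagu
hsa-miR-181d-5p: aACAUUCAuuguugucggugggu
All 4 guide arms hold the same seed, ACAUUCA. Counting positions from 1 at the 5′ end, hsa-miR-181a-5p and hsa-miR-181b-5p differ by A9U, C10U and A21G, and hsa-miR-181b-5p and hsa-miR-181d-5p by C12U alone. hsa-miR-181c-5p is 22 bases long and 1 edit away from the 23 bases of hsa-miR-181a-5p. The table lists 1 further microRNA with this seed, hsa-miR-4262. It was listed at 0 counts throughout, so that a level of up to 0.435 CPM is possible for shELOVL5 and of up to 0.427 CPM for shLuc.

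The passenger arms are shown because they report on single hairpins, again with the seed in capitals.
hsa-miR-181a-3p: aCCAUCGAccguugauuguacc
hsa-miR-181a-2-3p: aCCACUGAccguugacuguacc
hsa-miR-181c-3p: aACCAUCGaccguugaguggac
The 3 passenger arms have 3 different seeds and share a run of 9 bases, gaccguuga. hsa-miR-181a-3p and hsa-miR-181a-2-3p differ by U5C, C6U and U16C. The first pair of changes lies in the seed. In the table as matched to RefSeq, no microRNA outside the family had the seed of any of these 3 arms.

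The hairpins lie in pairs at 3 loci, given on GRCh38 with GENCODE release 29. MIR181A1 (chromosome 1, 198859044 to 198859153, minus strand) and MIR181B1 (198858873 to 198858982) are 61 bases apart in an intron of the long noncoding RNA gene MIR181A1HG. MIR181A2 (chromosome 9, 124692442 to 124692551, plus strand) and MIR181B2 (124693710 to 124693798) are 1158 bases apart in an intron of MIR181A2HG, and on the strand opposite to NR6A1, within an intron of that nuclear receptor gene. MIR181C (chromosome 19, 13874699 to 13874808, plus strand) and MIR181D (13874875 to 13875011) are 66 bases apart in an intron of NANOS3, an RNA-binding protein gene known from germ cells. The miR-181a hairpins of chromosomes 1 and 9 are printed with both mature arms in capitals, as they give the same guide and different passengers.
MIR181A1: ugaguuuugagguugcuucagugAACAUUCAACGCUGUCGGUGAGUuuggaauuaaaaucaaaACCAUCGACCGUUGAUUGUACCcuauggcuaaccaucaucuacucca
MIR181A2: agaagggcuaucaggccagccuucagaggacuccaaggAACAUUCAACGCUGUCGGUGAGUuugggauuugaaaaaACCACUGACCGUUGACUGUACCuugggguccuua
The guide is identical in both, while the passengers, loops and flanks differ.

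The libraries held 6811811 microRNA counts for shELOVL5 and 7109272 for shLuc. Counts were scaled to counts per 1000000 (CPM) with TMM factors of 1.01 for shELOVL5 and 0.988 for shLuc. All ratios are shELOVL5 over shLuc with a 95% interval that covers counting error only. Replicate cultures were not sequenced, so no difference can be set against their spread, and none is tested here. As RNA came from whole cultures, fewer cells with a microRNA and less of it per cell cannot be told apart. The cells carried microRNAs known from mesenchymal-type breast cancer lines (hsa-miR-21-5p, hsa-miR-100-5p, hsa-miR-222-3p and hsa-miR-221-3p, summing to 435891 CPM for shELOVL5 and 449163 CPM for shLuc). The 4 epithelial markers summed to 302 CPM for shELOVL5 and 247 CPM for shLuc. Of these, hsa-miR-200b-3p gave 236 CPM for shELOVL5 and 180 CPM for shLuc, and hsa-miR-200c-3p gave 65.2 and 66.5 CPM. hsa-miR-141-3p and hsa-miR-205-5p had 7 and 3 counts for shELOVL5, against 3 and 2 for shLuc. Of the 7 blood cell markers, in whose cells miR-181a is also known, 2 had 0 counts in both libraries and 1, hsa-miR-486-5p, passed the expression limit. The blood list summed to 331 CPM for shELOVL5 and 398 CPM for shLuc, of which hsa-miR-486-5p alone gave 311 CPM for shELOVL5 and 397 CPM for shLuc. Below the limit, hsa-miR-142-5p went the other way with 12.2 CPM for shELOVL5 (84 counts), against 0.855 CPM for shLuc (6 counts), and so did hsa-miR-142-3p with 45 counts for shELOVL5, against 2 for shLuc. The 4 endothelial and stromal markers summed to 761 CPM for shELOVL5 and 633 CPM for shLuc. Of these, hsa-miR-126-3p alone gave 750 CPM for shELOVL5 and 626 CPM for shLuc, and the others lay below the expression limit. Among these others, hsa-miR-126-5p had 63 counts for shELOVL5 and 37 for shLuc, a ratio of 1.73 (1.14 to 2.68). hsa-miR-143-3p had 11 counts for shELOVL5 and 12 for shLuc, and hsa-miR-145-5p had 3 and 2. The part of such markers in the miR-181 values was not tested.

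Guide arms were close to level between the libraries, and the passenger arms of miR-181a were lower in shELOVL5. The guides hsa-miR-181a-5p and hsa-miR-181b-5p were each about 1.06-fold higher. The passengers hsa-miR-181a-3p and hsa-miR-181a-2-3p stood at ratios of 0.821 and 0.688. No member reached a 2-fold difference in either direction. Among the 191 expressed microRNAs (mean of at least 50 CPM and at least 100 counts over both libraries), 1.57% were at least 2-fold higher and 0% at least 2-fold lower in shELOVL5. Of the members, 5 passed this limit, and hsa-miR-181c-5p and hsa-miR-181c-3p did not.

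**Figure D1:**
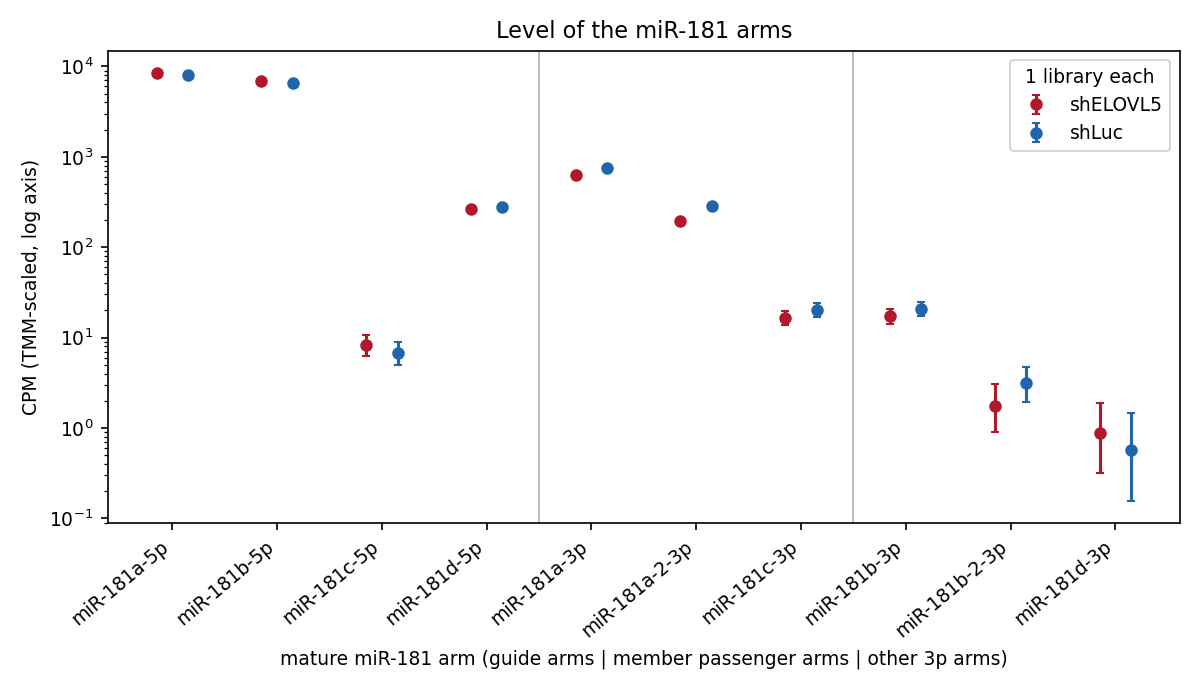
Level of each miR-181 arm in CPM (log axis) in the shELOVL5 library (red, left) and the shLuc library (blue, right), 1 library each, with exact Poisson 95% counting intervals. The levels run from 8554 CPM for hsa-miR-181a-5p to 0.870 CPM for hsa-miR-181d-3p in shELOVL5. The red point lies below the blue one for 5 of the 6 passenger arms. Among these, only the miR-181a arms had a ratio interval wholly below 1.

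Among the guides, hsa-miR-181a-5p was the most abundant. It was counted 59000 times (8554 CPM) in shELOVL5, against 56715 times (8078 CPM) in shLuc, a ratio of 1.06 (1.05 to 1.07), and it ranked 23rd in shELOVL5 and 24th in shLuc of all microRNAs. hsa-miR-181b-5p, which shares its seed and is known to act on many of the same targets, was counted 47632 times (6906 CPM) in shELOVL5, against 45859 times (6531 CPM) in shLuc, a ratio of 1.06 (1.04 to 1.07). Both guides of the chromosome 1 and 9 loci were thus slightly higher in shELOVL5, by nearly equal factors.

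The chromosome 19 guides were far rarer. hsa-miR-181d-5p, described in glioma as a regulator of the DNA repair gene MGMT, was counted 1817 times (263 CPM) in shELOVL5, against 1967 times (280.1 CPM) in shLuc. Its ratio was 0.940 (0.882 to 1.00). The interval just includes 1. With total count scaling in place of TMM it also included 1, at 0.964 (0.904 to 1.03). The DESeq2 size factors were 1 for both libraries, so they made no correction for depth. With them the interval lay wholly below 1, at 0.924 (0.866 to 0.985). hsa-miR-181c-5p, described in vesicles of brain-metastatic breast cancer cells, was counted 57 times (8.26 CPM) in shELOVL5, against 47 times (6.69 CPM) in shLuc. Its ratio of 1.23 has an interval of 0.824 to 1.86, so a difference from level was not detectable at this depth.

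The make-up of the guide pool was almost the same in both libraries. hsa-miR-181a-5p took 54.4% of the guide counts in shELOVL5 (exact binomial 95% interval 54.1 to 54.7%) and 54.2% in shLuc (53.9 to 54.5%). hsa-miR-181b-5p took 43.9% in shELOVL5 and 43.8% in shLuc, with overlapping intervals. The share of hsa-miR-181d-5p was 1.67% in shELOVL5 (1.60 to 1.75%) and 1.88% in shLuc (1.80 to 1.96%), and that of hsa-miR-181c-5p was 0.0525% in shELOVL5 and 0.0449% in shLuc. Summed, the 4 guides with the ACAUUCA seed held 108506 counts or 1.59% of the shELOVL5 library and 104588 counts or 1.47% of the shLuc library, a ratio of 1.06 (1.05 to 1.07). This sum depends less than the single values on how reads were divided among the near-identical guides. With hsa-miR-181a-5p left out the ratio of the other 3 was 1.05 (1.04 to 1.07).

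The table gives a separate row for each precursor of a guide. For hsa-miR-181a-5p the chromosome 9 row was 35 counts below the chromosome 1 row in shELOVL5 and 36 below it in shLuc. For hsa-miR-181b-5p the chromosome 1 row held 41961 counts in shELOVL5 and 40325 in shLuc, which was 11.9% below the chromosome 9 row in shELOVL5 and 12.1% below it in shLuc. The ratio was 1.06 from either row. These rows carry no estimate of how much each locus contributed.

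The passenger arms of miR-181a were both lower in shELOVL5. hsa-miR-181a-3p, from chromosome 1, was counted 4300 times (623 CPM) in shELOVL5, against 5330 times (759 CPM) in shLuc, a ratio of 0.821 (0.789 to 0.855). hsa-miR-181a-2-3p, from chromosome 9, was counted 1357 times (197 CPM) in shELOVL5, against 2008 times (286 CPM) in shLuc, a ratio of 0.688 (0.642 to 0.737). Neither interval reaches 1, and the intervals of the 2 arms do not overlap each other. hsa-miR-181c-3p was counted 114 times (16.5 CPM) in shELOVL5, against 142 times (20.2 CPM) in shLuc, and its ratio of 0.817 (0.633 to 1.05) could not be told from level at this depth.

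Among the 191 expressed microRNAs, the ratio of hsa-miR-181a-2-3p was the third lowest, with 2 microRNAs below it, hsa-miR-151a-3p and hsa-miR-99b-5p (both named after their values were seen). hsa-miR-181a-3p had 26 expressed microRNAs below it. The guides hsa-miR-181a-5p and hsa-miR-181b-5p stood in the upper part of the order with 127 and 126 below them, and hsa-miR-181d-5p had 75 below it. The median log2 ratio was 0.08 over the 4 guides and -0.29 over the 3 passengers, against -0.03 over all expressed microRNAs, whose interquartile range ran from -0.18 to 0.17. Of the 5 expressed members, 2 had an interval wholly above 1 and 2 wholly below. The same held for 31.9% and 41.9% of all expressed microRNAs, so an interval off level was common in these libraries and does not set the members apart. Being the less abundant arm did not go with a low ratio in general. The 43 expressed minor arms had a median log2 ratio of -0.03, with 24 of them below 0, and the 130 expressed major arms had a median of -0.03. Of the 43, none lay below hsa-miR-181a-2-3p and 7 lay below hsa-miR-181a-3p. The 43 include both miR-181a passengers, and the 7 include hsa-miR-181a-2-3p itself.

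**Figure D2:**
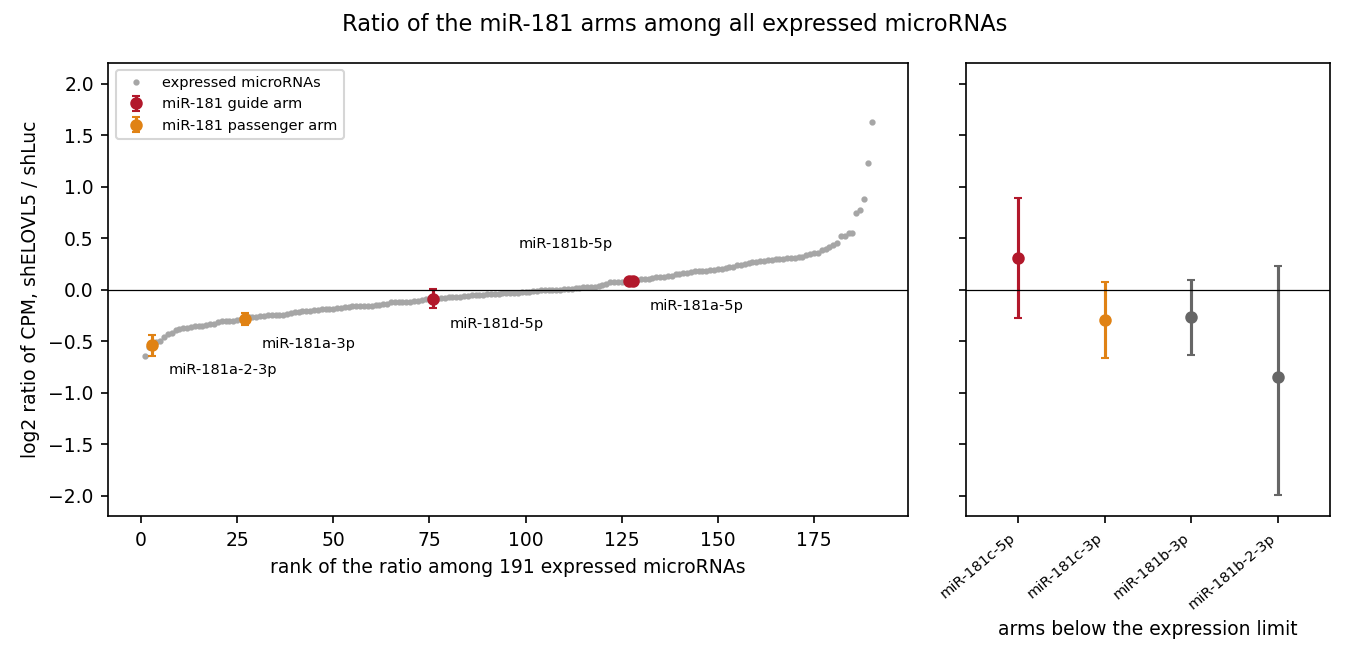
Left, log2 ratio of CPM (shELOVL5 over shLuc) of the 191 expressed microRNAs in order of their ratio, with the expressed miR-181 guide arms in red and passenger arms in orange; 1 microRNA lies above the axis. Right, the arms below the expression limit (guide red, member passenger orange, other 3p arms grey; hsa-miR-181d-3p, with 6 counts in shELOVL5 and 4 in shLuc, is not drawn). Bars are 95% counting intervals, and hsa-miR-181a-2-3p sits at the low end at -0.54, with the guides hsa-miR-181a-5p and hsa-miR-181b-5p at 0.08.

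The table also lists the 3p arms of the remaining miR-181 hairpins, which were rare. hsa-miR-181b-3p, from chromosome 1, had 119 counts in shELOVL5 and 146 in shLuc, a ratio of 0.830 (0.646 to 1.06). hsa-miR-181b-2-3p, from chromosome 9, had 12 counts in shELOVL5 and 22 in shLuc, a ratio of 0.555 (0.250 to 1.17). hsa-miR-181d-3p had 6 counts in shELOVL5 and 4 in shLuc. Over all 6 passenger arms, 5 had a ratio below 1, of which 2, the miR-181a arms, had intervals wholly below 1. Among the 43 expressed minor arms of all hairpins, which include both miR-181a passengers, 24 had a ratio below 1. These shares are not like for like. Of the 6 arms only those of miR-181a passed the expression limit, and hsa-miR-181c-3p is the major arm of its hairpin. The 3 rare arms together stood at 0.811 (0.643 to 1.02), next to 0.785 (0.758 to 0.813) for the miR-181a passengers.

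In order of level, hsa-miR-181a-5p and hsa-miR-181b-5p were followed by hsa-miR-181a-3p in both libraries. Next came hsa-miR-181d-5p and hsa-miR-181a-2-3p, whose order differed. In shELOVL5 the guide hsa-miR-181d-5p had 263 CPM (exact Poisson 95% interval 251 to 276) and the passenger hsa-miR-181a-2-3p 197 CPM (186 to 208). In shLuc the same arms had 280.1 CPM (268 to 293) and 286 CPM (274 to 299), intervals that overlap. The lowest members in both libraries were hsa-miR-181c-3p and hsa-miR-181c-5p. The members are 22 or 23 bases long. Whether length or the capture of single sequences by the library chemistry enters these orders was not tested.

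The balance of the arms within a hairpin does not depend on library scaling. With the passengers of both loci summed against the shared guide, the miR-181a balance was shifted away from the passengers in shELOVL5. In shELOVL5 the miR-181a passengers took 8.75% of all miR-181a counts (8.53 to 8.97%), against 11.5% in shLuc (11.2 to 11.7%). The odds of passenger to guide were 1.35-fold lower in shELOVL5 (exact conditional 95% interval 1.30 to 1.40). For the chromosome 1 passenger alone there were 7.29 counts per 100 guide counts in shELOVL5 and 9.40 in shLuc, and for the chromosome 9 passenger 2.30 in shELOVL5 and 3.54 in shLuc. The log2 odds ratio was -0.37 (-0.43 to -0.31) for the chromosome 1 passenger and -0.62 (-0.72 to -0.52) for the chromosome 9 passenger. The whole guide count was used for each hairpin, since the guide's reads cannot be divided between them. The balance within each single hairpin was therefore not measured.

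The rarer hairpins gave values of the same sign for miR-181b and miR-181c. The miR-181b 3p arms took 0.274% of the miR-181b counts in shELOVL5 and 0.365% in shLuc, a log2 odds ratio of -0.41 (-0.75 to -0.07) for both hairpins together. Each miR-181b 3p arm alone, set against the whole miR-181b guide count, had an interval that includes 0. The log2 odds ratio was -0.35 (-0.71 to 0.01) for the chromosome 1 arm and -0.93 (-2.08 to 0.15) for the chromosome 9 arm. In miR-181c the 3p arm was the more abundant one in both libraries, with 66.7% of the miR-181c counts in shELOVL5 (59.1 to 73.7%) and 75.1% in shLuc (68.3 to 81.1%). Its log2 odds ratio of -0.60 had an interval of -1.29 to 0.10. The known guide of this hairpin was thus the minor arm here, from 57 counts in shELOVL5 and 47 in shLuc. Whether some of its reads were assigned to the near-identical hsa-miR-181a-5p was not tested. For miR-181d the log2 odds ratio was 0.70 with an interval of -1.38 to 2.97, which leaves the direction unknown. Over the 7 members, passengers made up 5.05% of member counts in shELOVL5, against 6.67% in shLuc, a log2 odds ratio of -0.43 (-0.48 to -0.38), and nearly all of these counts are from miR-181a.

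Set against all hairpins, the shift of the miR-181a arms was toward the low end. Over 190 hairpins with at least 100 counts on both arms together and at least 1 count of the minor arm in each library, the median log2 odds ratio of the minor over the major arm was 0.03, with an interquartile range from -0.23 to 0.37. The interval lay wholly below 1 in 11.1% of hairpins and wholly above 1 in 17.9%. There were 18 hairpins below MIR181A2 and 29 below MIR181A1, where each of these was taken with the whole miR-181a guide count. Not all hairpins of the family lay low on this measure. MIR181D stood at 0.70 (-1.38 to 2.97). MIR181C stood at 0.60 (-0.10 to 1.29), but its minor arm is the 5p arm. Its value is thus the 3p over 5p log2 odds ratio of -0.60 with the sign reversed. In the 36 hairpins whose minor arm had at least 1000 counts, a limit chosen after the values were seen, 0 lay below MIR181A2 and 2 below MIR181A1. These 2 were MIR181A2 itself and the hairpin of miR-27a, whose log2 odds ratio was -0.43. In this set the median was 0.08, and 11 hairpins had an interval below 1 and 15 above.

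**Figure D3:**
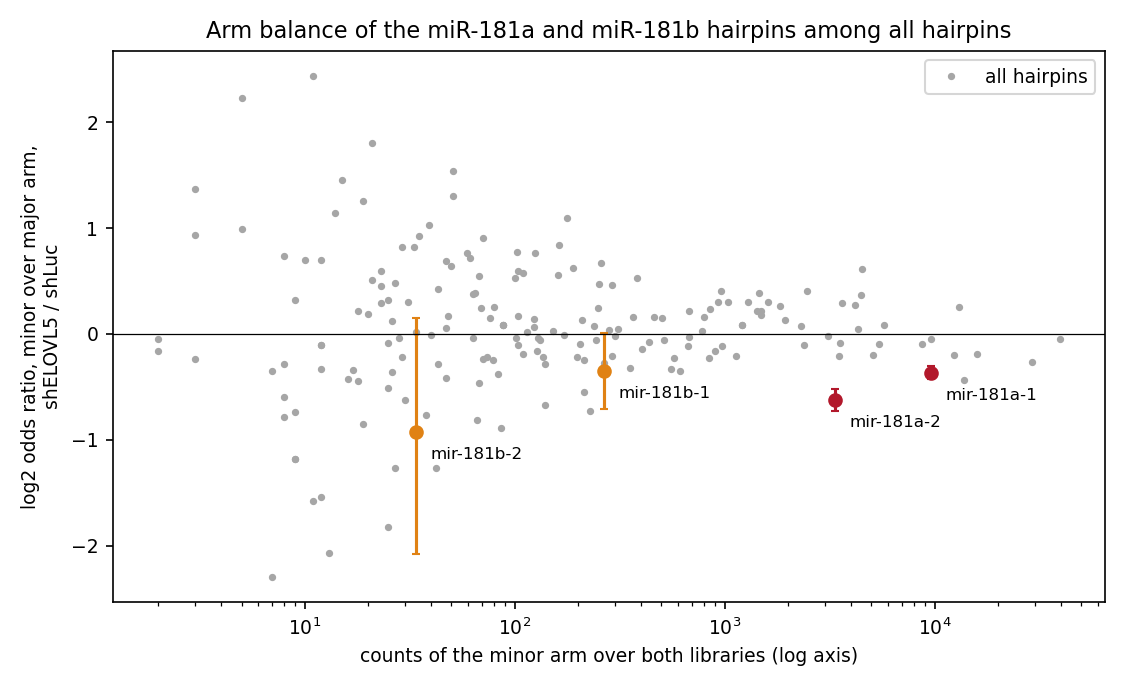
Log2 odds ratio of the minor over the major arm (shELOVL5 over shLuc) of 190 hairpins against the counts of the minor arm over both libraries (log axis), with the miR-181a hairpins in red and the miR-181b hairpins in orange with exact 95% intervals. Values scatter widely at low counts. Above 1000 counts the MIR181A2 hairpin at -0.62 is the lowest point and the MIR181A1 hairpin at -0.37 the third lowest. Both use the whole miR-181a guide count. The MIR181C hairpin at 0.60 (-0.10 to 1.29) and the MIR181D hairpin at 0.70 (-1.38 to 2.97) are among the unmarked points. The minor arm of MIR181C is its 5p arm, so its 3p over 5p value has the opposite sign.

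The passenger arms were then used to compare the loci. hsa-miR-181a-3p made up 76.0% of the miR-181a passenger counts in shELOVL5 (74.9 to 77.1%) and 72.6% in shLuc (71.6 to 73.7%). The odds of chromosome 1 to chromosome 9 were 1.19 times as high in shELOVL5 (1.10 to 1.29). The miR-181b passengers, from the neighbouring hairpins of the same loci, had 90.8% from chromosome 1 in shELOVL5 (84.5 to 95.2%) and 86.9% in shLuc (80.8 to 91.6%). Their odds ratio was 1.49 with an interval of 0.674 to 3.45, so with 34 counts on the chromosome 9 arm the direction could not be resolved. The miR-181b 3p arms of the loci are nearly identical in sequence, and whether they share reads was not tested. These shares compare passenger arms between libraries. They do not give the share of guide made at each locus, which was not measured.

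Other families whose guide comes from more than a single hairpin gave a frame for this value. Of 15 pairs of passenger arms from such families, 8 had at least 20 counts on each passenger arm over both libraries. In the let-7a pair, hsa-let-7a-3p is listed for both hsa-let-7a-1 and hsa-let-7a-3, so it does not report on a single hairpin. In 1 of the 8 the interval of the odds ratio did not include 1. That was the let-7f pair, with 441 and 37 counts for hsa-let-7f-1-3p and hsa-let-7f-2-3p in shELOVL5 and 460 and 14 in shLuc, a log2 odds ratio of -1.46 (-2.48 to -0.52). The pairs with the most counts lay near level, at -0.17 (-0.40 to 0.06) for miR-125b, -0.01 (-0.40 to 0.37) for miR-24 and -0.04 (-0.76 to 0.68) for miR-16. The miR-181a value of 0.26 (0.14 to 0.37) was exceeded in size by 2 of the 8 pairs, and most of these intervals are too wide to exclude a shift of that size.

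**Figure D4:**
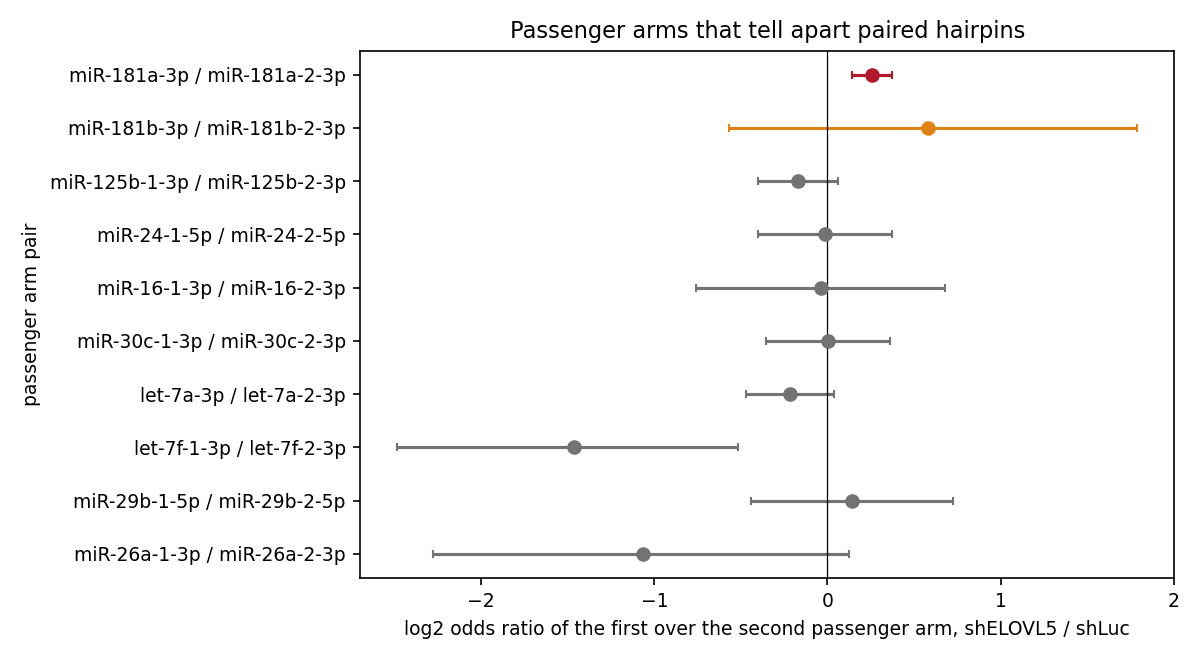
Log2 odds ratio (shELOVL5 over shLuc) of the first over the second passenger arm, with exact 95% intervals. The families have more than a single hairpin for their guide, with miR-181a in red, miR-181b orange and the 8 other pairs grey. The miR-181a interval (0.14 to 0.37) lies to the right of 0, the let-7f interval to the left, and the other intervals include 0.

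The chromosome 19 hairpins MIR181C and MIR181D lie 38039 bases from MIR23A, the nearest hairpin of the miR-23a, miR-27a and miR-24-2 cluster, which is on the opposite strand. hsa-miR-27a-3p of that cluster had 82439 counts in shELOVL5 and 67781 in shLuc, a ratio of 1.24 (1.23 to 1.25), and hsa-miR-23a-3p had a ratio of 1.05 (1.04 to 1.07). Of the minor arms, hsa-miR-27a-5p was below level at 0.918 (0.888 to 0.950). The interval of hsa-miR-24-2-5p at 0.961 (0.912 to 1.01) included 1. hsa-miR-24-3p, which also comes from chromosome 9, stood at 0.904 (0.897 to 0.911). hsa-miR-23a-5p had 66 counts in shELOVL5 and 58 in shLuc, a ratio of 1.16 with a wide interval of 0.802 to 1.68. hsa-miR-181d-5p at 0.940 (0.882 to 1.00) overlaps in its interval with all of these arms but hsa-miR-27a-3p and hsa-miR-23a-3p.

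The microRNAs most like hsa-miR-181a-5p were sought among the 21 expressed microRNAs outside the family with a mean CPM within 2-fold of it, by the smallest difference in log2 ratio over these 2 libraries. They were hsa-miR-23a-3p at a ratio of 1.05, hsa-miR-423-3p at 1.09 (1.07 to 1.10) and hsa-miR-7-5p at 1.02 (0.999 to 1.03). With 1 ratio per microRNA this is a likeness in size only. In the list of microRNAs known from lymphocyte development and immune signalling, where miR-181a is best known, 3 of 7 were expressed. None of these 3 was at least 2-fold different. All 3 had intervals above 1, as did 31.9% of all expressed microRNAs. The 4 not counted as expressed include hsa-miR-142-3p, which differed by far more, at a ratio of 22.9 (5.98 to 195) that rests on the 2 shLuc counts, while the other 3 had at most 2 counts per library. Of the expressed ones, hsa-miR-146a-5p, an inhibitor of innate immune signalling, had the highest ratio at 1.84 (1.80 to 1.88), hsa-miR-92a-3p stood at 1.33 and hsa-miR-17-5p at 1.18.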

How the data were processed

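Small RNA libraries of MDA-MB-231 cells were single-end reads from an Illumina NextSeq, made with a NEBNext small RNA kit, per the labels' protocols. The authors deposited raw counts of reads for each mature arm of each precursor, without normalization. The submitters' processing notes list cutadapt 2.10 and Bowtie 1.1.1. How reads were counted, how many mismatches were allowed and how multiply matching reads were handled is not given in the sources used here. Near-identical guides, and the near-identical 3p arms of miR-181b, may therefore share reads, and PCR copies may be counted more than once. The highest precursor row per mature microRNA and library was kept. TMM factors came from edgeR 4.0.16 (R 4.3.3), with DESeq2 1.42.0 size factors as an alternative. Intervals of ratios and shares are exact Clopper-Pearson, those of levels exact Poisson and those of odds ratios exact conditional, at 95%. A count of 0 allows up to 3 counts. These cover counting error only. With 1 library per condition no p-value is given. Scripts were tested on simulated counts. RefSeq sequences were matched for 2367 of the 2656 names. Named were all members, the other arms of their hairpins, microRNAs with the guide seed, the arms of the neighbouring chromosome 19 hairpins, the 3 microRNAs most like hsa-miR-181a-5p and the 3 passenger pairs with most counts. Any other is named after its values were seen. The members and lists were chosen with earlier results of these data known.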

Additional observations from a re-analysis of the deposited data

How the results depend on the processing

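No paired analysis was possible because shELOVL5 and shLuc have a single library each, which also means that none could be left out. Under total count scaling and DESeq2 size factors (both 1, so equal to unscaled counts) all log2 ratios shifted by 0.036 and -0.026, and the summed guides moved from 0.079 to 0.115 and 0.053 with the direction kept. Of the 7 members only hsa-miR-181d-5p changed the side of its interval, which lay below 1 with DESeq2 factors. The odds ratios of arms and loci do not depend on scaling. The log2 odds ratio of passenger to guide arms was -0.43, and -0.60 from miR-181c alone, which has few counts. No member was 2-fold different under any setting run. The expressed microRNAs at least 2-fold higher (3) numbered 6 with a 1.5-fold rule, 5 with a mean of at least 10 CPM, 0 with at least 1000 CPM, and 120 when 1 count per library was enough. Those at least 2-fold lower (0) numbered 1 with the 1.5-fold rule and 77 when 1 count per library was enough. Each limit on level also changes how many microRNAs are examined, so these counts cannot be compared as shares. Of 36 other values of single members under a setting, 32 stayed within the main counting interval, and the 4 that did not were hsa-miR-181a-5p and hsa-miR-181b-5p under the 2 scalings. Using the chromosome 1 row of hsa-miR-181b-5p, chosen after seeing the data, moved no value beyond its interval. Depth limits hsa-miR-181c and the 3p arms of miR-181b and miR-181d, and the missing replicates limit all comparisons.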
